A study of Mus musculus with 14 samples.

Results

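The comparison described here sets RNA immunoprecipitation (RIP) libraries of HU-treated mouse embryonic stem cells against those of untreated cells, both recovered through Flag-tagged Dppa5a. It takes in 4 of the 14 libraries of the series, chosen by their labels: Flag_Dppa5a replicates 1 and 2 (untreated) and HU_Flag_Dppa5a replicates 1 and 2. The study set out to find which RNAs Dppa5a binds with and without HU. The 4 libraries share the cell type, a line labelled as home made, the genotype (3Flag-Dppa5a overexpression), and the Flag antibody of the pull-down. They differ only in the treatment label, which reads untreated or HU; the labels give neither the full name of HU nor a dose or duration. A pair of IgG libraries from untreated cells of the same genotype gave the background of the pull-down, and HU-treated cells had no IgG library of their own. Stem cells were kept on fibroblast feeder cells and passaged on gelatin before harvest. Whether the replicates were cultured separately is not in the labels, and the p-values cover the spread among these libraries alone, which may be technical.

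Dppa5a is a small protein of pluripotent cells that binds RNA through a KH domain, and RIP recovers the RNAs that come down with such a protein. Most of the RNAs called in the main fit, described below, belong to 2 textbook groups. Replication-dependent histone genes lie in clusters, are used in S phase to package newly copied DNA, and give messages that end in a stem-loop in place of a poly(A) tail. The p53 targets are genes switched on by p53, a transcription factor that responds to damaged DNA, and many of their products halt the cell cycle or start cell death. RNA of the cells before immunoprecipitation was not part of the comparison, so a change in the amount of an RNA in the cells and a change in its recovery with Flag-Dppa5a cannot be told apart. In bulk libraries, fewer cells that make an RNA and less of it per cell cannot be told apart either.

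The 4 Flag libraries held 13033886 and 9469168 counts (untreated) and 9641507 and 7378729 counts (HU), and the IgG libraries 3472020 and 3703236. Outside Rn45s, Rmrp, Rpph1 and Lars2, 1492111 and 1112135 counts remained in the untreated libraries, 1038048 and 816592 in the HU libraries, and 702016 and 841305 with IgG. Levels are CPM, that is counts brought to a common library size, after TMM scaling. The 8 stem cell markers checked, Pou5f1 and Sox2 among them, had counts in all 6 libraries and summed to 753 and 772 CPM untreated and 636 and 555 CPM with HU. The 10 fibroblast markers summed to between 21.6 and 62.6 CPM, with Col3a1, Dcn, Lum and Postn at 0 in every library. Nearly all of each sum was Fn1, at 21.4 to 61.0 CPM. Col1a1 had 1 count in each HU library and 0 in the other libraries.

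In the main fit, which did not match libraries by replicate number, HU-treated and untreated libraries differed in few RNAs. Those lower with HU nearly all fell into 1 group. Of 9760 genes tested, 65 (0.666%) passed an adjusted p of 0.05 in edgeR's quasi-likelihood test: 16 were higher with HU (0.164%) and 49 lower (0.502%). Of the 49 lower genes, 48 were clustered, replication-dependent histone genes (98.0%), and the remaining gene was the histone variant H2afx. Of the 16 higher genes, 6 were on a list of p53 targets. The others were the RNA of RNase MRP (Rmrp), Apaf1, Zfp365, Tef, Klhl42, Rap2b, Cep170b, Ddit4l, Lyz2 and Ccl9. The median log2 fold change of all tested genes was 0.00094. TMM scaling sets most genes near 0, so this value cannot show whether the total RNA recovered changed. At an unadjusted p under 0.05 there were 370 genes, 207 higher and 163 lower. A fit of the 4 Flag libraries that matched them by replicate number called 169 genes (88 higher, 81 lower). Of these, 56 were clustered histone genes, all lower, and 13 were p53 targets, all higher. The number of calls rested on single libraries: it was 26 without untreated Flag replicate 1, and 35 and 34 without IgG replicate 1 or 2, whose spread enters the fit. In all, 23 genes (2 higher and 21 lower) were called in each of the 6 fits that left out 1 library.

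**Figure D1:**
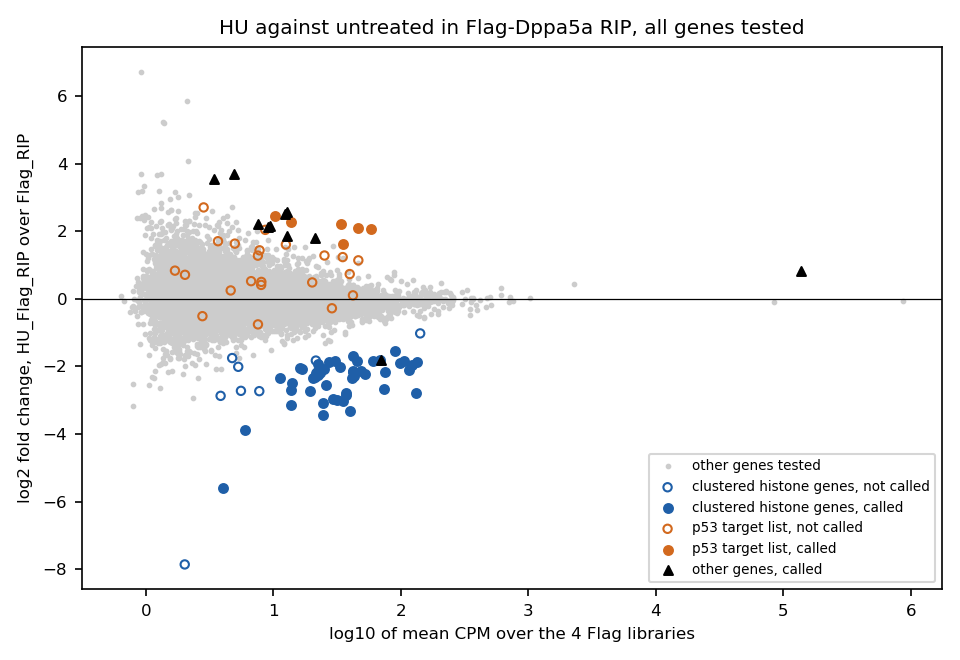
Log2 fold change of HU_Flag_RIP over Flag_RIP (vertical axis) against log10 mean CPM over the 4 Flag libraries (horizontal axis) for the 9760 genes tested; filled symbols passed an adjusted p of 0.05. The histone genes lie below 0 as a separate cloud, the called p53 targets lie above 0, and the triangle at far right is Rmrp.

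To show the 2 groups at the DNA level, the promoters of 3 called p53 targets and 2 called histone genes are printed from RefSeq's GRCm38.p6 table, 300 bases each, from 250 before to 50 after the start of the gene, 5′ to 3′ on the gene's strand. In the first 3, capitals mark matches to the 10-letter p53 half-site. In the last 2, capitals mark CCAAT and TATAAA, read on both strands, so that ATTGG and TTTATA are the same letters on the opposite strand. The windows are Ccng1 chr11:40755237-40755536 (minus strand), Mdm2 chr10:117710709-117711008 (minus), Cdkn1a chr17:29090729-29091028 (plus), Hist1h1b chr13:21780576-21780875 (minus) and Hist1h2bk chr13:22035571-22035870 (plus).
Ccng1: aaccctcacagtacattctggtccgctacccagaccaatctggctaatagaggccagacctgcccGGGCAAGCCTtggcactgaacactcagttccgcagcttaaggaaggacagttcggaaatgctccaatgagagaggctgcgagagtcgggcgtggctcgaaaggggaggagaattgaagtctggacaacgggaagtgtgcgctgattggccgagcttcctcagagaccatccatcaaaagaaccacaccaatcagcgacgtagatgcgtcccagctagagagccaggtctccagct
Mdm2: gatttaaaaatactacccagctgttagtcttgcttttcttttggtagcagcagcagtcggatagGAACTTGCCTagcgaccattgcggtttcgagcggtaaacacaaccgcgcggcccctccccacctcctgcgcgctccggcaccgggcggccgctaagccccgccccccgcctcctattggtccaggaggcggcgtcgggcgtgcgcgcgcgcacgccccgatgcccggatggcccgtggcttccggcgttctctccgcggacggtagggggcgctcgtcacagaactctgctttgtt
Cdkn1a: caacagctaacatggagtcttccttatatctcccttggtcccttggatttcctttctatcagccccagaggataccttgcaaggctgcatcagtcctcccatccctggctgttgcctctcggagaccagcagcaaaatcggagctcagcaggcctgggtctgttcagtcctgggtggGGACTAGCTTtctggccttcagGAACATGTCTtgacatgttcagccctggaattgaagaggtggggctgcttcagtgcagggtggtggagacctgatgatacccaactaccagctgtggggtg
Hist1h1b: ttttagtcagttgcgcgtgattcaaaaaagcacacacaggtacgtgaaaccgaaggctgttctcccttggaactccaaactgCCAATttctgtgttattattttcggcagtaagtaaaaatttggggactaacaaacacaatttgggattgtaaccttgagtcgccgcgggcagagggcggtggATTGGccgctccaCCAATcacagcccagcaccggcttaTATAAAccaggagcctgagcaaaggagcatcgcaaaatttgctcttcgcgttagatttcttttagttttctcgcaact
Hist1h2bk: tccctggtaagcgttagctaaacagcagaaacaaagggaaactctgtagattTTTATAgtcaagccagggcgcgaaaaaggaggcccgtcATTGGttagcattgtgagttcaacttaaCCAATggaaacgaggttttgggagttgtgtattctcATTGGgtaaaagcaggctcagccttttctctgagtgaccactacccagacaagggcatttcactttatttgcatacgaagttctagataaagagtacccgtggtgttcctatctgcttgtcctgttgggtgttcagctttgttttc
The half-site was present in 11 of 26 promoters of tested p53 targets (42.3%, with an entry for 20 of 28 genes) and in 8.36% of all 32851 promoters of the table. It was in 6 of 15 promoters of all genes called higher, on the list or not (40.0%, with an entry for 13 of 16 genes). Of 6 promoters of called p53 targets, 3 held it. The windows of Phlda3 and Btg2 held no match, nor did a second Cdkn1a promoter of the table, chr17:29093519-29093818 (plus). Of the 53 promoters of tested histone genes (52 of 57 genes had an entry), CCAAT was in 86.8% and TATAAA in 60.4%, against 37.4% and 13.6% of all promoters. The motifs searched do not overlap each other. A match describes letters in the window, and binding was not measured.

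Clustered histone messages fell across every histone class. Of 57 tested members, 48 were called lower (84.2%, against 0.502% of all genes), none was called higher in edgeR or under any of the 23 alternatives, and 9 did not pass. All 57 had a log2 fold change below 0, with a median of -2.20, and in 56 both HU libraries lay below both untreated ones (98.2%, against 14.9% of all genes). Some members, Hist1h2aa and Hist3h2bb-ps among them, entered the test through their untreated counts alone. Their direction was therefore not independent of the count filter. Among the 48 called genes the smallest fall was 2.94-fold and the median fall 4.64-fold. The 68 list members present in the tables summed to 4765 and 2747 CPM in the untreated libraries and to 936 and 822 CPM in the HU libraries. The IgG libraries stood between them, at 1763 and 1643 CPM. Of these 68 members, 11 had at most 9 counts in any library and were not tested.

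The fall was seen in linker and core histones alike. Hist1h1b (chr13:21779832-21780625, mm10), a linker histone H1 gene, was at 312 and 144 CPM untreated and at 35.4 and 30.8 CPM with HU, against 111 and 149 CPM with IgG. Its log2 fold change was -2.78 (SE 0.34, edgeR adjusted p = 0.00023). Hist1h1c, also an H1 gene, was at 143 and 100.5 CPM untreated and at 27.3 and 27.3 CPM with HU (-2.15, SE 0.29). Of 6 tested H1 genes, 5 were called, with a median of -2.13. For both genes the HU libraries lay below the untreated and the IgG libraries, with no overlap.

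Among the core histones, H2A and H2B messages had the lowest medians, and the classes were not tested against each other. Hist1h2bk (chr13:22035821-22036320), an H2B gene, was at 86.5 and 58.8 CPM untreated, at 5.04 and 9.66 CPM with HU, and at 45.6 and 62.9 CPM with IgG (log2 fold change -3.32, SE 0.38, edgeR adjusted p = 0.00023). Hist1h2bc, another H2B gene, went from 67.5 and 43.7 CPM to 7.16 and 6.88 CPM (-2.98, SE 0.35). Of 16 H2B genes 13 were called (median -2.75), and of 14 H2A genes 11 were called (median -2.41). The H2A gene Hist1h2ak was at 73.2 and 52.7 CPM untreated and at 9.68 and 5.73 CPM with HU (-3.02, SE 0.36). Hist3h2a, an H2A gene outside the main cluster (chr11:58954685-58955192), went from 62.1 and 27.8 CPM to 4.11 and 4.26 CPM (-3.42, SE 0.43). In each of these 4 genes the higher HU library was below the lower untreated library.

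H3 and H4 messages fell as well. Of 10 H3 genes 9 were called (median -2.03), and of 11 H4 genes 10 were called (median -1.85). Hist1h3f, an H3 gene, was at 89.0 and 53.6 CPM untreated and at 18.6 and 10.6 CPM with HU (-2.28, SE 0.36). Hist1h4d, an H4 gene, was at 291 and 129 CPM untreated and at 63.9 and 52.1 CPM with HU (-1.86, SE 0.35, edgeR adjusted p = 0.011). Its IgG libraries, at 83.3 and 50.4 CPM, overlapped the HU range. Without untreated replicate 1 the Hist1h4d value was -1.15 and no longer passed (adjusted p = 0.445), and it also missed the threshold without either IgG library and without HU replicate 2.

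By position, 43 of 48 tested genes of the Hist1 cluster (chr13:21715713-23934913) were called, 3 of 5 in Hist2 (chr3:96219916-96270192), 1 of 3 in Hist3 (chr11:58948911-58955192) and the single Hist4 gene (chr6:136803993-136804431). The 9 that did not pass were Hist2h2ac, Hist3h2bb-ps, Hist1h3h, Hist3h2ba, Hist1h2bp, Hist1h1t, Hist1h2ad, Hist1h4a and Hist2h2ab, named because they complete the list. Among them Hist1h4a was the most abundant, at 243 and 137 CPM untreated and 102 and 85.6 CPM with HU (-1.02, SE 0.31, adjusted p = 0.37). The pseudogene Hist3h2bb-ps had 61 and 18 counts in the untreated libraries and 0 in both HU libraries, which allows up to 0.398 and 0.491 CPM (3 counts per library). Hist2h2ab was the 1 member whose groups overlapped.

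The untreated level of the group differed between its replicates: 55 of 57 genes were higher in replicate 1 than in replicate 2, while 35 of 57 were higher in HU replicate 1. The untreated mean lay above the IgG mean in 57 of 57 genes. The HU mean lay below the IgG mean in 49 of 57, and in 43 both HU libraries lay below both IgG libraries, which came from untreated cells. Leaving out untreated replicate 1 lowered the number called from 48 to 23, and leaving out IgG replicate 1 or 2 lowered it to 30 each. The median stayed between -2.50 and -1.82 over the 23 alternatives, and 21 histone genes, among them Hist1h2bk, Hist1h2bc, Hist1h1b and Hist3h2a, passed in each that gave them a value. Histone copies are near-identical in sequence, and reads that match several copies may have been dropped or given to 1 of them. Values of single genes, and the low counts of the untested members, are therefore uncertain.

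**Figure D2:**
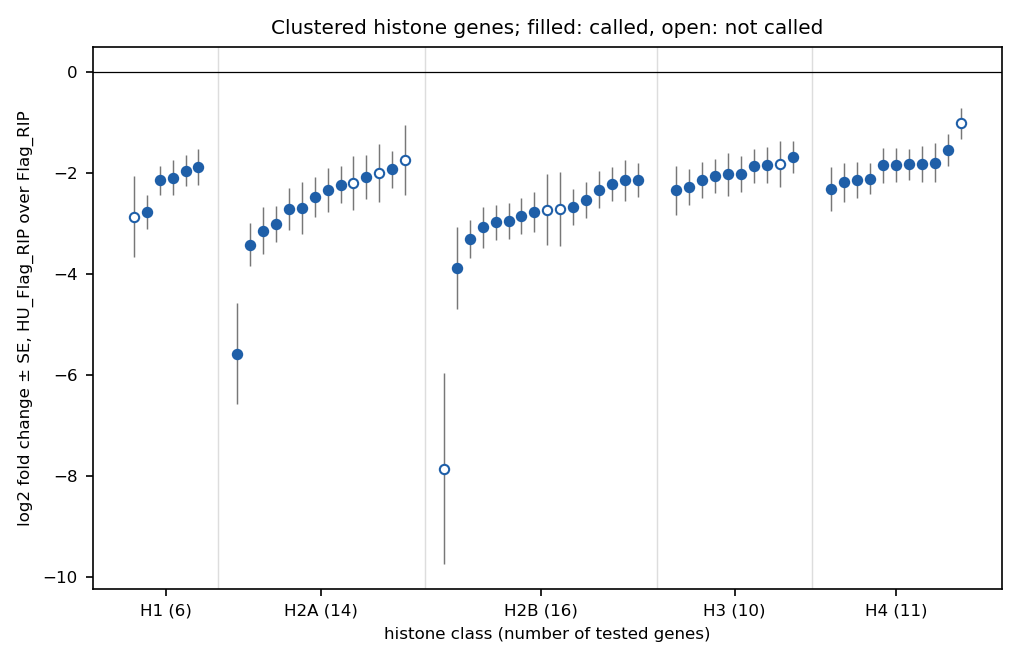
Log2 fold change of HU_Flag_RIP over Flag_RIP with its SE for each of the 57 tested clustered histone genes, grouped by histone class and ordered within it. All points lie below 0; the 48 filled points passed an adjusted p of 0.05 and the 9 open points did not.

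Most tested histone genes are short: 54 of the 57 lay among the shortest 10% of tested genes by RefSeq gene span. The other 920 genes of that bin had a median log2 fold change of 0.0055, with 4 called higher and 1 lower. The bin runs from 42 to 4392 bases of span, introns included, against a histone median of 487. An effect of RNA length was not tested. Histone genes outside the replication-dependent clusters were examined after the values above were seen. Of 11 such genes, H2afx was called lower and the other 10 did not pass, with a median of -0.37 over the 11. H2afx (chr9:44334715-44336073) encodes the H2A variant that is phosphorylated at DNA breaks. It was at 158 and 59.1 CPM untreated and at 38.9 and 22.8 CPM with HU (-1.81, SE 0.39, edgeR adjusted p = 0.034), but without untreated replicate 1 the value was -0.94 (adjusted p = 1.0). Its call was also lost without either IgG library and without HU replicate 2. H2afz, the replication-independent H2A.Z gene, was at 236 and 163 CPM untreated and 189 and 137 CPM with HU, with overlap between the groups (-0.29, SE 0.26). H3f3b, an H3.3 gene, was at 263 and 98.3 CPM untreated and 191 and 60.8 CPM with HU, also with overlap (-0.52, SE 0.43), and its value turned to 0.35 without untreated replicate 1 and to 0.075 without HU replicate 2. H1f0, a replacement linker histone gene, was at 39.4 and 32.3 CPM untreated and 19.5 and 9.66 CPM with HU and did not pass (-1.29, SE 0.37, adjusted p = 0.26). Of 13 tested genes for histone message processing, a list also drawn up afterwards, none was called or had an unadjusted p under 0.05 in edgeR, and DESeq2, limma-voom and edgeR's exact test called none (median 0.06).

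The p53 targets moved the other way. Of 28 tested members 6 were called higher (21.4%, against 0.164% of all genes), 22 did not pass, and none was called lower in edgeR or under any alternative. The median log2 fold change was 1.26, 25 of 28 values were above 0, and in 18 both HU libraries lay above both untreated ones (64.3%, against 15.1% of all genes). At an unadjusted p under 0.05 there were 16 members, all with higher values. The 30 members in the tables summed to 291 and 354 CPM untreated, 747 and 711 CPM with HU, and 347 and 319 CPM with IgG. The untreated Flag libraries therefore overlapped the IgG range for this group, and the HU libraries lay above both.

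Ccng1 (chr11:40748552-40755286), the gene of cyclin G1, was at 19.1 and 15.8 CPM untreated, 83.4 and 65.5 CPM with HU and 16.4 and 9.54 CPM with IgG. Its log2 fold change was 2.09 (SE 0.33, edgeR adjusted p = 0.0027), and the call held in each of the 23 alternatives. Trp53inp1 (chr4:11156441-11174377), whose product promotes p53-dependent cell death, was at 17.9 and 27.6 CPM untreated, 112 and 77.1 CPM with HU and 18.6 and 20.3 CPM with IgG (2.06, SE 0.32, edgeR adjusted p = 0.0024). Of the 6 fits without 1 library, it missed the threshold in the one without untreated replicate 1 (1.78, adjusted p = 0.056). Btg2 (chr1:134074865-134079155), an antiproliferative gene that is also an immediate early gene, was at 8.71 and 15.5 CPM untreated and 43.5 and 68.1 CPM with HU (2.21, SE 0.37, edgeR adjusted p = 0.0036). In all 3 genes the lower HU library was more than the higher untreated library, and the IgG libraries were near the untreated ones.

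The other 3 called targets act on p53 itself, on the cell cycle or on growth signalling. Mdm2 (chr10:117688875-117710758), the ubiquitin ligase that degrades p53, was at 15.4 and 18.5 CPM untreated, 47.4 and 58.5 CPM with HU and 12.7 and 17.5 CPM with IgG (1.64, SE 0.32, edgeR adjusted p = 0.016). Cdkn1a (chr17:29090986-29100722), the p21 inhibitor of cyclin-dependent kinases, was at 1.82 and 7.69 CPM untreated, 27.2 and 18.5 CPM with HU and 9.82 and 7.50 CPM with IgG (2.29, SE 0.52, edgeR adjusted p = 0.0497). In proportion to their level, its untreated replicates differed more from each other than those of the other 5 targets. The Cdkn1a value was 1.57 without untreated replicate 1. Phlda3 (chr1:135766085-135769134), an inhibitor of Akt signalling, was at 3.25 and 3.10 CPM untreated, 19.4 and 15.7 CPM with HU and 1.64 and 2.90 CPM with IgG (2.46, SE 0.47, edgeR adjusted p = 0.013).

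Several of these calls were lost when 1 library was left out. The number of p53 targets called was 2 without untreated replicate 1 and 3 without IgG replicate 2. Btg2 lost its call in both of these fits (adjusted p = 0.088 and 0.0502). Mdm2 lost its call without either IgG library, without untreated replicate 1 or without HU replicate 2, with adjusted p up to 0.26. Phlda3 lost it without either untreated library or HU replicate 1, with adjusted p up to 0.17. Cdkn1a lost it in 4 of the 6 fits: without either IgG library, untreated replicate 1 or HU replicate 1. All 6 genes kept a positive value in each alternative, and the list median stayed between 0.998 and 1.67.

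**Figure D3:**
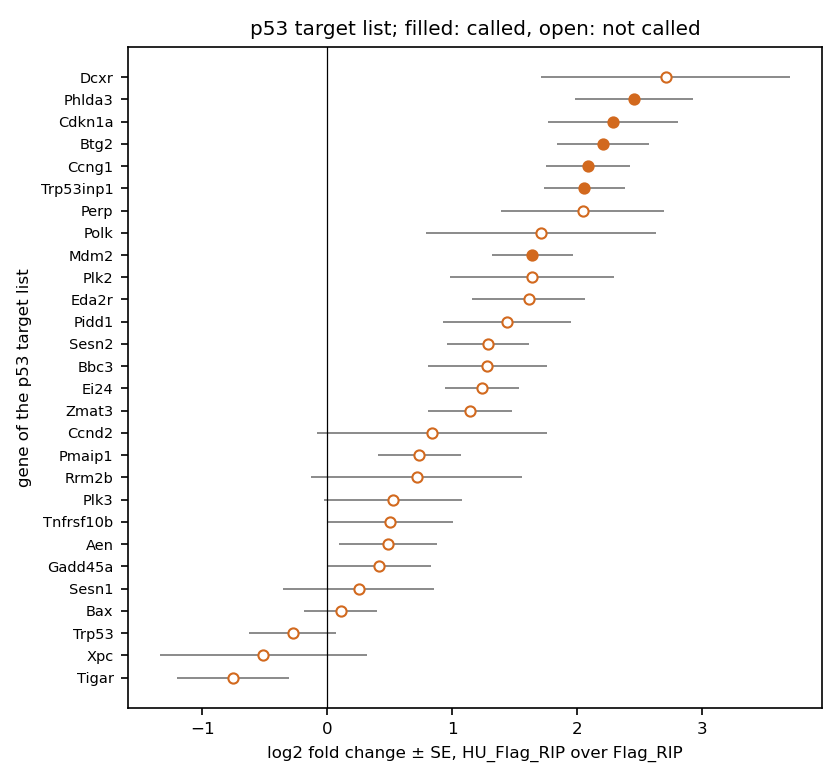
Log2 fold change of HU_Flag_RIP over Flag_RIP with its SE for the 28 tested p53 targets, ordered by value. The 6 filled points passed an adjusted p of 0.05; 25 of 28 values lie to the right of 0.

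Members that did not pass, named after their values were seen, included genes of cell death and stress. Ei24, an endoplasmic reticulum protein induced by p53, was at 19.5 and 22.1 CPM untreated and at 45.8 and 52.6 CPM with HU (1.24, SE 0.30, adjusted p = 0.086). Sesn2, a stress-induced sestrin, was at 13.8 and 15.5 CPM untreated and at 43.4 and 28.0 CPM with HU (1.29, SE 0.33, adjusted p = 0.13), and its IgG libraries were at 47.3 and 38.3 CPM. Eda2r, a receptor of the tumour necrosis factor family, had a value of 1.61 (SE 0.45, adjusted p = 0.26). Trp53 itself was at 40.5 and 22.6 CPM untreated and at 31.3 and 20.8 CPM with HU (-0.28, SE 0.35), and its value turned to 0.21 without untreated replicate 1. Tigar, a regulator of sugar metabolism, had a value of -0.75 (SE 0.45, adjusted p = 1.0).

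Outside the p53 list, 10 genes were called higher. The list is a selection, so a gene that is not on it may still be a p53 target. Apaf1, the scaffold of the apoptosome, was at 3.25 and 3.60 CPM untreated, 13.3 and 17.5 CPM with HU and 5.52 and 4.94 CPM with IgG (2.16, SE 0.45, edgeR adjusted p = 0.026). Zfp365 was at 2.01 and 5.46 CPM untreated and 16.8 and 26.9 CPM with HU (2.56, SE 0.54). Cep170b was at 9.19 and 9.93 CPM untreated, 39.0 and 27.2 CPM with HU and 17.2 and 16.4 CPM with IgG (1.79, SE 0.35). Tef, a circadian bZIP transcription factor, was at 2.97 and 3.72 CPM untreated and 14.99 and 14.4 CPM with HU (2.14, SE 0.46). Klhl42, an adaptor of a cullin ubiquitin ligase, and Rap2b, a small GTPase, had values of 2.22 (SE 0.50) and 1.86 (SE 0.42). None of the HU libraries overlapped the untreated ones in these 6 genes. Apaf1, Tef, Klhl42 and Rap2b lost their calls in each of the 6 fits without 1 library, whichever library it was. For these genes the losses therefore do not point to a single library. Cep170b lost its call in 5 of the fits and Zfp365 in 4. The values stayed positive, between 1.51 and 3.43.

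Ddit4l, a relative of the mTOR inhibitor Ddit4, had 3 and 9 counts untreated, 66 and 58 counts with HU and 0 counts in both IgG libraries. These were 0.287 and 1.12 CPM against 8.75 and 9.50 CPM (3.72, SE 0.79, edgeR adjusted p = 0.034). Ddit4l entered the test through its HU counts alone, so its direction was not independent of the count filter. The IgG count of 0 allows up to 0.614 and 0.511 CPM. The call held only without untreated replicate 2 among the 6 fits that left out a library.

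**Figure D4:**
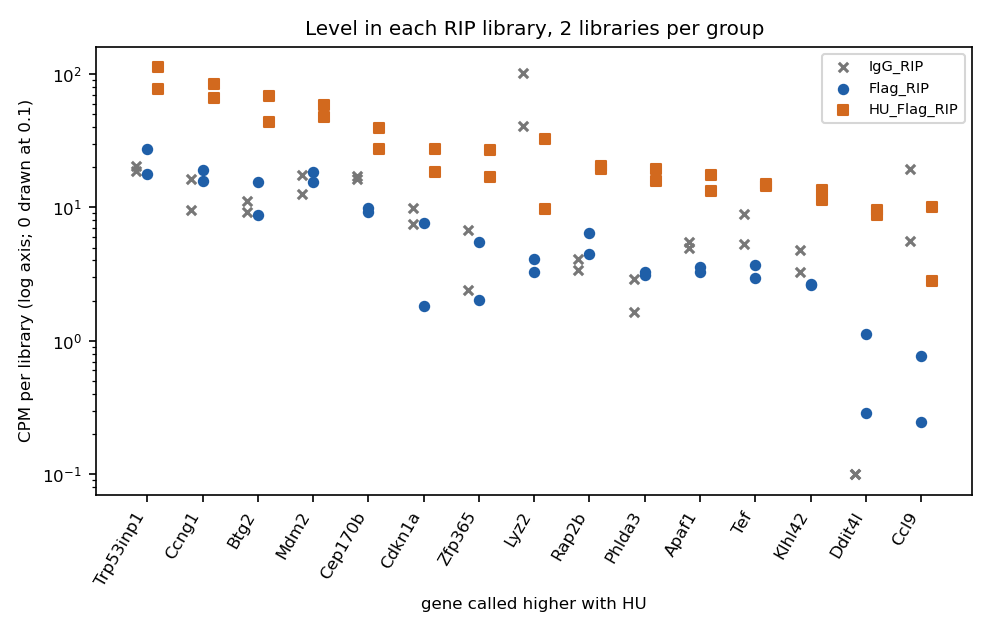
CPM in each of the 6 RIP libraries (log axis) for the 15 genes called higher with HU other than Rmrp; squares are HU_Flag_RIP, circles Flag_RIP and crosses IgG_RIP, with 2 libraries each and a value of 0 drawn at 0.1. In each gene both squares lie above both circles; for Lyz2 both crosses, and for Ccl9 1 cross, lie above both squares.

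Lyz2 (lysozyme) and Ccl9 (a chemokine) are markers of macrophages and related myeloid cells. Lyz2 was at 3.25 and 4.10 CPM untreated, 9.68 and 32.6 CPM with HU and 102 and 40.4 CPM with IgG (2.52, SE 0.52, edgeR adjusted p = 0.025). Ccl9 was at 0.766 and 0.248 CPM untreated, 2.79 and 9.99 CPM with HU and 19.2 and 5.62 CPM with IgG (3.54, SE 0.80, edgeR adjusted p = 0.049). Like Ddit4l, Ccl9 entered the test through its HU counts alone. In both genes HU replicate 2 was the higher of the HU libraries. The 19 macrophage markers of the list summed to 10.2 and 11.5 CPM untreated, 19.1 and 56.8 CPM with HU and 173 and 82.5 CPM with IgG, and 3 of them were tested, with Lyz2 the 1 called. Lyz2 itself made up much of the HU sums, at 9.68 and 32.6 CPM. Among other markers checked, Cd68 had 7 and 11 counts untreated and 2 and 6 with HU, and Csf1r 5 and 0 against 1 and 3. Ptprc had 0 and 0 counts untreated against 3 and 11 with HU, and Tyrobp 2 and 0 against 1 and 7. Lyz2 was not called by DESeq2 (adjusted p = 0.32) or limma-voom (adjusted p = 0.22), and Ccl9 was not called by limma-voom (adjusted p = 0.94). The defining marker Adgre1 was at 0 in all libraries but HU replicate 2, where it had 2 counts. In the series' separate RNA-seq libraries of mouse embryonic stem cells Lyz2 was listed at 0 and 0.0332 FPKM. Without HU replicate 2 the values were 1.40 for Lyz2 (adjusted p = 0.45) and 2.36 for Ccl9 (adjusted p = 0.59). Both calls were also lost without either IgG library or untreated replicate 1, and that of Ccl9 without untreated replicate 2. The part of myeloid RNA in the other results was not tested.

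Rmrp, the RNA of the RNase MRP enzyme that cleaves precursor ribosomal RNA, was the called gene with the smallest p. Rmrp took 8.37% and 8.01% of counts untreated, 12.9% and 15.6% with HU and 28.2% and 35.6% with IgG. On the scaled level it was at 104472 and 94110 CPM untreated and at 164418 and 188556 CPM with HU (log2 fold change 0.83, SE 0.09, edgeR adjusted p = 0.00023). The HU libraries lay between the untreated Flag and the IgG libraries, with no overlap. The call was kept in each fit without 1 library, with a largest adjusted p of 0.0063. It was lost in 3 other alternatives, where adjusted p was 0.055 (a filter at 10 CPM), 0.23 (a test against a 1.5-fold change) and 0.55 (edgeR's exact test).

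The other abundant RNAs were not called. Rn45s, the ribosomal RNA precursor, took 72.6% and 73.2% of counts untreated and 69.4% and 66.9% with HU, against 47.9% and 39.3% with IgG (-0.06, SE 0.10, adjusted p = 1.0). Its sign changed under 2 alternatives, to 0.016 at most. Rpph1, the RNA of RNase P and a relative of Rmrp, had a value of 0.46 (SE 0.19, adjusted p = 1.0). Lars2, a mitochondrial leucine tRNA synthetase gene, had a value of -0.10 (SE 0.17), which turned to 0.0074 without HU replicate 2. It took 7.37% and 6.93% of counts untreated, 6.81% and 6.15% with HU and 3.22% and 2.05% with IgG. Whether these counts come from the synthetase message was not tested.

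The message of the bait was not called. Dppa5a (chr9:78367054-78368199) was at 167 and 159 CPM untreated and 114 and 114 CPM with HU, so the HU libraries lay below the untreated ones, and at 238 and 254 CPM with IgG. Its log2 fold change was -0.52 (SE 0.23, unadjusted p = 0.039, adjusted p = 1.0). These counts may include both the tagged transgene and the endogenous gene. Rev1, a scaffold and polymerase of translesion synthesis, was at 6.32 and 9.56 CPM untreated and 15.3 and 14.7 CPM with HU (0.92, SE 0.46, unadjusted p = 0.060, adjusted p = 1.0). Polq, the polymerase of microhomology-mediated end joining, was at 2.78 and 3.35 CPM untreated and 3.71 and 5.40 CPM with HU (0.57, SE 0.62, adjusted p = 1.0).

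Of 31 tested cell cycle genes 1 was called, Cdkn1a, which was higher, though most values were below 0. In 17 both HU libraries lay below both untreated ones (54.8%, against 14.9% of all genes), 10 had an unadjusted p under 0.05, and the median was -0.34. Aurka, the mitotic kinase Aurora A, was at 17.6 and 16.8 CPM untreated and at 9.29 and 4.42 CPM with HU (-1.31, SE 0.40, adjusted p = 0.42). Plk1, another mitotic kinase, and Ccnb1, cyclin B1, named after their values were seen, had values of -1.33 (SE 0.45) and -0.91 (SE 0.31), both with adjusted p = 0.64. Values of pluripotency factors were also mostly below 0: of 39 tested none was called (edgeR; 3 had an unadjusted p under 0.05), 31 values were below 0, and in 11 the HU libraries lay below the untreated ones (28.2%), with a median of -0.38. Tet1, a DNA demethylation enzyme, was at 81.3 and 103 CPM untreated and 44.3 and 69.3 CPM with HU (-0.70, SE 0.29, adjusted p = 1.0).

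Genes of DNA replication and repair were not called apart from H2afx, which stands on the replication stress list. Of 38 genes of replication licensing and the fork none was called (2 at an unadjusted p under 0.05; median 0.23), and in 10 the HU libraries lay above the untreated ones (26.3%, against 15.1% of all genes). Of 25 genes of nucleotide supply none was called (2 at an unadjusted p under 0.05; median -0.07). Rrm2, the small subunit of ribonucleotide reductase, was at 25.8 and 31.2 CPM untreated and 54.0 and 44.2 CPM with HU (0.79, SE 0.30, unadjusted p = 0.016, adjusted p = 0.88). Of 24 genes of homologous recombination none was called (1 at an unadjusted p under 0.05; median 0.36). Of 20 tested genes of translesion synthesis none was called, and none had an unadjusted p under 0.05 (median 0.16). Of 11 tested genes of non-homologous end joining none was called either, with 9 values below 0 and a median of -0.37. The medians were -0.02 for 15 genes of microhomology-mediated end joining and 0.23 for 13 Fanconi anemia genes, with none called. DESeq2, limma-voom and edgeR's exact test, all without a replicate term, likewise called none of the pluripotency, licensing, nucleotide supply, recombination or translesion genes.

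**Figure D5:**
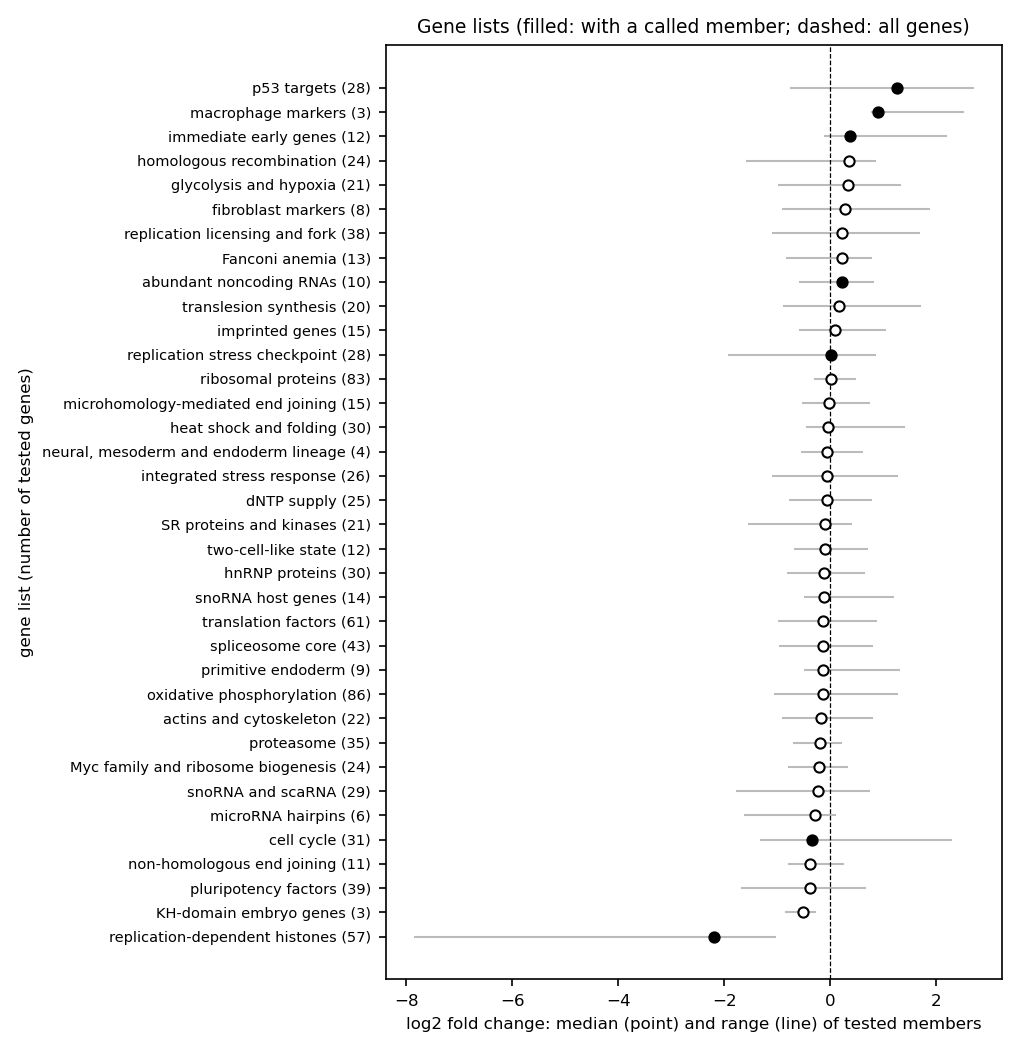
Median log2 fold change of HU_Flag_RIP over Flag_RIP (points) and range of tested members (lines) for the 36 gene lists; filled points mark the 7 lists with at least 1 called member and the dashed line is the median of all tested genes. The histone list stands at -2.20 and the p53 list at 1.26, and the other lists lie nearer to 0.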

How the data were processed

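RNA was measured in 14 libraries, of which 6 were RIP libraries. For RIP the authors deposited raw counts by gene symbol (whole numbers with different library totals), and for the other libraries FPKM with gene loci, per the file headers. Build mm10 and the tools HTSeq 0.6.1, TopHat2 2.0.8, CASAVA 2.19, Cuffdiff 2.1.1 and Cufflinks 2.1.1 are named, without roles, in the submitters' processing notes. The labels name Trizol extraction and a NEBNext Ultra kit but no strand setting, so reads of overlapping or antisense partners could not be assigned to either.

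Of 24421 symbols, 27 read as dates and were left out (0.0206% to 0.0489% of counts). Genes were filtered with filterByExpr on the 4 Flag libraries and tested by edgeR 4.0.16 (R 4.3.3; glmQLFit and glmQLFTest, the quasi-likelihood test) in 1 fit of all 6 RIP libraries, with TMM scaling and Benjamini-Hochberg adjustment over 9760 genes, called under 0.05. TMM factors were 0.802 and 0.852 untreated, 0.783 and 0.830 with HU, and 1.41 and 1.59 with IgG. A gene could pass the filter through 1 group alone, and its direction was then not independent of the filter. Positive values are higher with HU. Replicates correlated across genes (log2 CPM, Pearson) at 0.910 untreated and 0.874 with HU, and each pair differed by more than sampling noise (chi-square per degree of freedom 10.8 to 13.4). The widest 95% Clopper-Pearson interval of a share of counts, that of Rn45s in IgG replicate 1, ran from 47.87% to 47.98% and covers counting error only. A count of 0 was given a limit of 3 counts. FPKM and loci of the stem cell libraries were used as deposited. DESeq2 1.42.0 and limma 3.58.1 (voom) were alternatives. The edgeR fit was tested on simulated data.

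The members and the 36 gene lists were chosen with earlier results of these data known. Genes were named by a rule: Dppa5a, Rev1, Polq, Rn45s, Rmrp, Rpph1 and Lars2, the 12 largest called changes in each direction with at least 10 CPM in the higher group and no overlap, and up to 4 genes of a list with several calls or 2 of any other list, by p. Hist1h1c, Hist1h3f, Hist1h4d, Mdm2, Ddit4l, Ccl9 and the genes said in the text to have been named after their values were seen fall outside it. The result of 1 gene that the rule chose is not reported here.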

Additional observations from a re-analysis of the deposited data

How the results depend on the processing

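Each of the 65 calls kept its sign under all 23 alternatives that tested it, and 22 (1 higher and 21 lower) stayed called under each. The number of called genes fell to 41 (4 higher) when tested against a 1.5-fold change and to 41 (6 higher) when the 4 Flag libraries were fitted alone, and without a filter 26 genes were higher. Leaving out 1 library gave 26 to 65 called genes, 3 to 14 higher and 23 to 51 lower, with 23 to 50 histone genes lower and 2 to 6 p53 targets higher; such a fit takes the spread of the lone library from the other groups, and without HU replicate 2, 9 genes were higher. With the replicate number as a block, the 4 Flag libraries gave 169 called genes (88 higher, 81 lower). Among them were 56 clustered histone genes, all lower, and 13 p53 targets, all higher. The same block on all 6 libraries gave 31 higher genes and 10 p53 targets. The block on the 4 Flag libraries also called 5 cell cycle genes lower, Aurka, Plk1 and Ccnb1 among them, and 2 higher. It called 1 licensing gene higher (Rfc3), 1 glycolysis gene higher (Ldha) and 1 lower (Hk2), and 1 gene of oxidative phosphorylation higher. It called 1 gene of non-homologous end joining lower, and also 2 histone genes outside the replication-dependent clusters, H2afx among them. Higher were 2 genes of the integrated stress response, 1 snoRNA host gene and 2 abundant noncoding RNAs. Across genes, the difference between replicates 1 and 2 correlated at 0.403 between untreated and HU Flag libraries. Against the IgG pair the same correlation was -0.011 for untreated and -0.018 for HU libraries. There are only 2 Flag pairs, and the labels give same-numbered libraries a number in common but no shared batch. Whether they were handled together was not tested, and the main fit did not match them. Other scalings, DESeq2 (72 called) and limma-voom (63) stayed within 1.5 times of the 65. The sign changed for Rn45s at a filter of 10 CPM (0.0156) and without HU replicate 2, for Lars2 and H3f3b without HU replicate 2 and for H3f3b and Trp53 without untreated replicate 1. Over the fits without 1 library the values ranged from -0.127 to 0.0067 for Rn45s, from -0.223 to 0.0074 for Lars2, from -1.57 to 0.35 for H3f3b (0.0753 without HU replicate 2) and from -0.633 to 0.205 for Trp53. The cause was not tested. A level of 3 counts corresponds to 0.287 to 0.491 CPM in the 4 Flag libraries, so single genes near that level carry little precision.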

Other observations

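No gene of the large housekeeping families was called between HU-treated and untreated libraries. Of 83 tested ribosomal protein genes none was called or had an unadjusted p under 0.05 in edgeR, with values between -0.31 and 0.48 and a median of 0.0055. Of 86 nuclear genes of oxidative phosphorylation none was called (2 at an unadjusted p under 0.05), and 63 values were below 0, with a median of -0.14. Of 35 proteasome genes none was called (1 at an unadjusted p under 0.05), and in 10 the HU libraries lay below the untreated ones (28.6%, against 14.9% of all genes), with a median of -0.20. DESeq2, limma-voom and edgeR's exact test, all without a replicate term, called none of these genes either. Of 29 tested small nucleolar and Cajal body RNAs none was called by these 4 tests (1 at an unadjusted p under 0.05 in edgeR). Snord22 was at 20.8 and 13.7 CPM untreated and 7.16 and 9.33 CPM with HU (-1.07, SE 0.40, adjusted p = 0.88).

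Values of glycolysis genes were mostly above 0, with 17 above and 4 below. In 8 of 21 tested members the HU libraries lay above the untreated ones (38.1%, against 15.1% of all genes), the median was 0.34, and none was called in edgeR (4 at an unadjusted p under 0.05) or by the other 3 tests without a replicate term. Ldha, lactate dehydrogenase A, was at 52.1 and 76.7 CPM untreated and 139 and 86.0 CPM with HU (0.81, SE 0.29, adjusted p = 0.85). Hk2, a hexokinase, was at 62.9 and 34.5 CPM untreated and 28.8 and 20.3 CPM with HU (-0.99, SE 0.33, adjusted p = 0.64). Of 12 immediate early genes Btg2 was called, and Nr4a1, a nuclear receptor, was at 4.31 and 2.85 CPM untreated and 9.15 and 8.19 CPM with HU (1.26, SE 0.48, adjusted p = 0.91).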
